A study of Mus musculus with 4 samples.

Results

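The genes described here are 52 genes of DNA replication and the G1/S transition, chosen by function: origin recognition and licensing, the replicative helicase, the polymerases and their clamp, and nucleotide and histone supply. On the array, 51 of the 52 had at least 1 probe set annotated to that gene alone, out of 18194 genes so named; Chaf1a was not analysed here. Where a gene had several probe sets, the one with the highest mean log2 signal stood for it. All 51 lay above the filter on low values (a signal of about 30.3), which kept 12680 genes.

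The cells were LSK cells, a mouse bone marrow population without lineage markers and with Sca-1 and c-Kit on its surface, in which blood stem cells and their first progeny are concentrated. They were taken from C57BL/6 mice whose blood system had been rebuilt from transplanted fetal liver and which had received a sublethal irradiation of 6.5 Gy. The design text speaks of irradiated LSK cells, while the wording of the sample labels does not settle whether the dose came before or after the transplant. In 1 group the donor fetal liver was necdin null (2 arrays) and in the other it was wild type (2 arrays). Every label carries the irradiation, so the comparison is between genotypes and not between doses. The sources used here do not give age, the time from irradiation to collection, the deleted part of the necdin gene or the share of surviving recipient cells. The labels number the replicates without tying them to separate mice, so a p-value here reflects no more than how far these arrays spread, and that spread may be technical.

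Before S phase, the origin recognition complex, Cdc6 and Cdt1 load the Mcm2 to Mcm7 hexamer onto origins; geminin, the product of Gmnn, blocks further loading. Kinases then activate the helicase by adding Cdc45 and GINS, and polymerases copy both strands behind it, held on DNA by the sliding clamp PCNA. Many of these genes are transcribed late in G1 under E2F factors, which the retinoblastoma protein family restrains, and necdin is known as a growth suppressor that binds E2F1. Stem cells at rest hold low levels of several of these factors, while cycling progenitors hold high levels, so in a sorted population their signal depends on which cells are present as well as on their state. In these bulk samples, fewer cycling cells and less RNA per cell cannot be told apart.

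A promoter feature shared by many members, and not used to choose them, was the E2F word. It was searched in 4 forms of 8 bases on both strands of RefSeq promoter windows of 300 bases (GRCm38.p6; 250 before the start site and 50 after): TTTCCCGC, TTTCGCGC, TTTGCCGC and TTTGGCGC. A forward and a reverse word may overlap. At least 1 word was present for 17 of the 44 members with a window (38.6%), against 704 of all 27025 genes with a window (2.6%) and 474 of the 10287 tested genes with a window (4.61%). By role, it was present for 4 of 5 MCM genes, both licensing genes with a window (Cdc6 and Cdt1) and 4 of 7 polymerase genes, and for 0 of 3 RPA genes and 0 of 4 nucleotide synthesis genes. A match is a description of letters and not a measured binding site. The following upstream sequences run 5′ to 3′ on the gene's strand and lie outside its annotated span. They show 6 of the 17 members that carry the word, in capitals, and Pola2, which has none in its window. The 6 have a word within the 200 bases before the start site and outside the annotated span. Members with words only elsewhere in the window, or with few such bases left, are not shown. Pola2 is a member whose necdin null arrays both lay below both wild type arrays.
Mcm5: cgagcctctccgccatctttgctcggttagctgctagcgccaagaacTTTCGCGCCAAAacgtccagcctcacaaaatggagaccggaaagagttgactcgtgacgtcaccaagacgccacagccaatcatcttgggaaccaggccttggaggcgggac
Mcm6: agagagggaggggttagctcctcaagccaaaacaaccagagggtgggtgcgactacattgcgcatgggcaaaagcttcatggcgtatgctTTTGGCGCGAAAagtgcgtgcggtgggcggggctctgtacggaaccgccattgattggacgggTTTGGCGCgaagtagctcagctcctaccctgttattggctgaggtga
Orc3: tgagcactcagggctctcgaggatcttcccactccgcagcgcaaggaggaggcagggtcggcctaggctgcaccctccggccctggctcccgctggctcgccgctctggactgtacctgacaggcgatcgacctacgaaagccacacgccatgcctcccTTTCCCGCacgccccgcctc
Gins3: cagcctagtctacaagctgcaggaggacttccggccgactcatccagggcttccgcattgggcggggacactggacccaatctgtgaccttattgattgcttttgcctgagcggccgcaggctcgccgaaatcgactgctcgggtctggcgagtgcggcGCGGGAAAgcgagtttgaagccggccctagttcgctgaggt
Rfc3: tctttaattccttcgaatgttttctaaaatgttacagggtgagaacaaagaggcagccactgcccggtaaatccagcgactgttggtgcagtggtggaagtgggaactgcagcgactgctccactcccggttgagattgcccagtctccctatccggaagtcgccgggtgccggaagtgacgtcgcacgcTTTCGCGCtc
Dtl: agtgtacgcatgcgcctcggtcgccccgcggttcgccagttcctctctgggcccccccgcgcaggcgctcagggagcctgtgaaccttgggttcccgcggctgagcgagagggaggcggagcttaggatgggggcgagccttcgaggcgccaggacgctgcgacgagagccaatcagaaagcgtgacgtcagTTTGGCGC
Pola2: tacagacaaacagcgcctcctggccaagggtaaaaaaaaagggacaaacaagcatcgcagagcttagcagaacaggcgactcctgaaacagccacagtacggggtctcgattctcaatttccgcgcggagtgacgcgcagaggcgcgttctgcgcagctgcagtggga
Their positions were chr8:75109309-75109467 (plus strand) for Mcm5, chr1:128359706-128359905 (minus strand) for Mcm6, chr4:34614964-34615142 (minus strand) for Orc3, chr8:95633359-95633558 (plus strand) for Gins3, chr5:151651209-151651408 (minus strand) for Rfc3, chr1:191575545-191575744 (minus strand) for Dtl and chr19:5964239-5964406 (minus strand) for Pola2. In Mcm5 and in the distal site of Mcm6 a forward and a reverse word overlap, beginning 153 and 149 bases before the start site in Mcm5 and 110 and 106 bases before it in Mcm6. Mcm6 has another word 47 bases before its start. The words of Orc3 and Gins3 begin 41 bases before the start, that of Rfc3 10 bases and that of Dtl 8 bases before it. The 17 array members with a word had a median log2 difference (necdin null minus wild type) of 0.145, between -0.35 and 0.44. The 26 without one had a median of -0.03, between -0.52 and 0.81, and the difference between these 2 sets was not tested.

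Differences between necdin null and wild type LSK cells were small for the replication genes and went in both directions. No member passed the test across all genes (limma adjusted p = 1 for each of the 51), where 0 of 12680 genes passed (0%). Their median log2 difference was 0.00, with 27 members higher and 24 lower on average, against -0.03 over all genes tested. Groups did not overlap for 8 members that were higher in necdin null (12.8% of all genes) and 7 that were lower (17.7% of all genes), a share of 29.4% against 30.5% of all genes. With each array centred on its median, groups were apart for 2 members higher and 11 lower (7.42% and 23.2% of all genes), and after quantile normalization for 9 and 9 (12.8% and 17.8% of all genes). An unadjusted limma p under 0.05 was found for 0 members that were higher (1.07% of all genes) and for 1 that was lower, Rfc1 (1.95%), where 3.02% of all genes passed in either direction. These shares are near the background and are no result about the members.

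The largest difference was 0.81, for Tyms. A 2-fold difference was reached by 0 of 51 members and by 1.2% (115) of the 9571 tested genes that lie within the members' range of signal levels. The median absolute difference was 0.15, against 0.18 over those genes; for the 25 members in the middle of their order by signal it was 0.15, against 0.13 over the 2397 genes of the same levels. These sizes are near those of other genes of like signal. The within-group standard deviation between replicates had a median of 0.19 for members and 0.23 for the 9571 genes. Standard errors of the differences lay between 0.18 and 0.49, with a median of 0.22. For 45 of the 51 members the 95% interval of the difference lay within a 2-fold change in either direction. These unadjusted intervals reflect the spread of these arrays, which may be technical. They therefore set no bound on a difference between genotypes and do not show that the groups are alike.

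**Figure D1:**
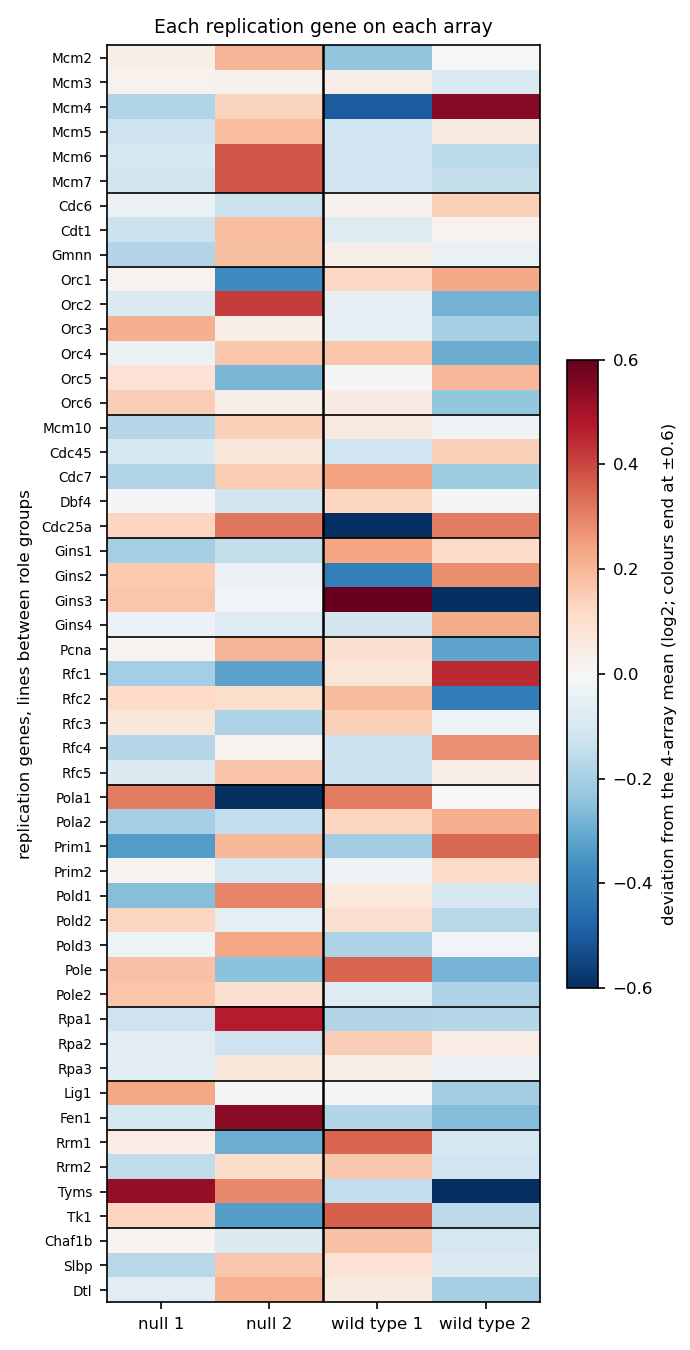
Deviation of each of the 51 replication genes from its mean over the 4 arrays (log2; red above, blue below), with the arrays in columns and the genes in rows grouped by role. No role group is uniformly red on both necdin null arrays and blue on both wild type arrays; the largest deviations on necdin null replicate 2 were -0.61 for Pola1, 0.54 for Fen1, 0.47 for Rpa1 and 0.42 for Orc2, and Mcm4, Cdc25a and Gins3 differ most between the wild type arrays.

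The origin recognition complex, which marks origins on DNA, had members in both directions. Orc1, the largest subunit, had signals of 374.6 and 282.7 in necdin null and 402.6 and 432.3 in wild type cells. Both necdin null arrays lay below both wild type arrays, by a log2 difference of -0.35 (95% interval -1.05 to 0.34). A weaker Orc1 probe set went the other way, with 148.9 and 292.2 against 90.23 and 8.465. Orc3 had 1930 and 1715 against 1609 and 1450, so it was higher on both necdin null arrays (0.25, interval -0.19 to 0.69), and 2 of 3 Orc3 probe sets had that direction. Orc2 had 1071 and 1522 against 1099 and 934.8; the groups overlapped, and only necdin null replicate 2 was high. Orc4, Orc5 and Orc6 also overlapped. The complex as a group had 4 of 6 genes higher on average and a median of 0.16, which was -0.021 without wild type replicate 2.

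Among the loading factors, Cdc6, the ATPase that brings the helicase to the origin complex, had 2874 and 2697, with 3010 and 3262 for wild type. It was lower on both necdin null arrays by 0.17 on average (difference -0.17, interval -0.58 to 0.24). Cdt1, its partner in loading, had 14750 and 18330 against 15270 and 16370, with the wild type values inside the necdin null range (0.06, interval -0.43 to 0.55). Gmnn overlapped too, with a difference of 0.00 (interval -0.46 to 0.46). Of the licensing genes, Cdc6 alone had groups apart as deposited. After quantile normalization Cdt1 had groups apart too, lower in necdin null cells (-0.09).

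Within the MCM hexamer, the motor of the replication fork, 5 of 6 genes were higher on average in necdin null cells as deposited, but with median centring or quantile normalization Mcm3 and Mcm5 turned lower, leaving 3 of 6. The median difference was 0.15 as deposited. Mcm2 had 7203 and 8099 against 5951 and 7019 in wild type cells (0.24, interval -0.20 to 0.68). Both of its probe sets were higher on both necdin null arrays, the second with 7186 and 6960 against 6361 and 5990. Mcm6 had 18250 and 25300 against 18050 and 17420 (0.28, interval -0.26 to 0.81), and Mcm7 had 24680 and 34480 against 24580 and 24100 (0.26, interval -0.30 to 0.83). In both, necdin null replicate 1 stood barely above the wild type arrays and replicate 2 well above them. The second Mcm6 probe set above the filter had a difference of 0.01 (13220 and 18410 against 13750 and 17360). Weaker Mcm7 probe sets, with 8048 and 6124 against 7263 and 5745 and with 6884 and 5055 against 5712 and 4850, had necdin null replicate 2 below replicate 1. All 4 Mcm7 probe sets and both Mcm6 probe sets above the filter were higher on average, 2 and 1 of them with groups apart.

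The other subunits did not share this order. Mcm3 had 7540 and 7563 against 7635 and 6964, and Mcm5 had 17550 and 21800 against 17660 and 19880. Both overlapped, and 3 of 5 Mcm3 probe sets and 1 of 3 Mcm5 probe sets were higher. Mcm4 had 9103 and 11310 against 7286 and 15050, so its wild type arrays lay on either side of the necdin null arrays; a second Mcm4 probe set had 5052 and 4938 against 4493 and 4677. No MCM gene had an unadjusted limma p under 0.05.

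The genes that fire origins and complete the helicase were also mixed. Dbf4, the activating partner of the Cdc7 kinase, had 2115 and 1976 against 2327 and 2118, a small separation (-0.12, interval -0.54 to 0.30). Cdc25a, a phosphatase that activates CDK2 and is degraded after DNA damage, had 1954 and 2226 against 1057 and 2217. The low value belonged to wild type replicate 1 alone, and a second Cdc25a probe set above the filter pointed the other way (549.1 and 594.2 against 1103 and 574). Mcm10, Cdc45 and Cdc7, which act at helicase activation, had differences between -0.03 and -0.02 with overlapping groups.

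GINS, the ring-shaped part of the active helicase, had its subunits apart from one another. Gins1 had 2895 and 3010, compared with 3920 and 3591 for wild type. Its 2 necdin null arrays lay close together and below both wild type arrays, by 0.35 on the log2 scale (difference -0.35, interval -0.75 to 0.06), and its other probe set had 185.2 and 182.8 against 204.7 and 210.3. Gins4 had 1671 and 1620 against 1584 and 1997, overlapping. Gins3, the least reproducible member, had 329.1 and 289.1 against 480.4 and 159.4, with wild type values on both sides of the necdin null values (0.15, interval -0.97 to 1.27). Gins2 overlapped as well (0.13), while its second probe set was lower on both necdin null arrays (427.3 and 471.9 against 578.3 and 657.3). The median of the GINS genes was 0.007, and -0.229 without _s_at, _x_at and _a_at probe sets.

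The primase and polymerase genes are given by enzyme, with no test between enzymes. The 4 genes of polymerase alpha and primase, which lay down primers, had differences between -0.35 (Pola2) and -0.09 (Prim2). A second Prim1 probe set went the other way (3958 and 4606 against 3529 and 4262, a difference of 0.14), and a second Prim2 probe set had 0.01. The 3 genes of the lagging strand polymerase delta had differences between 0.04 (Pold1) and 0.20 (Pold3), with Pold1 at -0.03 after quantile normalization. Here too weaker probe sets went the other way, at -0.26 for Pold1 and -0.28 for Pold3, while another Pold3 probe set had 0.03. The genes of polymerase epsilon had -0.07 (Pole) and 0.26 (Pole2). Groups were apart for Pola2 and Pole2 alone. Pola2, the regulatory subunit of polymerase alpha, had 1283 and 1325 against 1610 and 1710, lower in both necdin null arrays with replicates that differed little within each group (-0.35, interval -0.78 to 0.09). Pole2, the second subunit of the leading strand polymerase epsilon, had 4619 and 4378 against 3900 and 3619, higher in both (0.26, interval -0.15 to 0.67). Over the 9 genes, 4 were higher and 5 lower on average, with a median of -0.07. That median turned to 0.118 without wild type replicate 1, 0.072 without necdin null replicate 2 and 0.018 without _s_at, _x_at and _a_at probe sets.

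The single-strand binding protein RPA coats the unwound DNA as a complex of 3 subunits. Rpa1, the large subunit, had 16480 and 24840 against 15910 and 15910, again with necdin null replicate 1 just above wild type and replicate 2 far above (0.35, interval -0.22 to 0.91); its second probe set had a difference of 0.03. Rpa2 had 3078 and 2951 against 3567 and 3320, lower on both necdin null arrays for both of its probe sets (-0.19, interval -0.60 to 0.21). Rpa3 overlapped at 0.00. The 3 subunits of this complex therefore showed no common direction.

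Rfc1, the large subunit of the loader that opens the PCNA ring onto DNA, had the smallest p of all members. Its signals were 905.2 and 834.5 in necdin null and 1098 and 1424 in wild type cells. Both necdin null arrays were low and wild type replicate 2 was highest (difference -0.52, standard error 0.23, interval -1.03 to -0.01; limma adjusted p = 1). The filter kept 3 Rfc1 probe sets, of which 2 were lower; the third had 265.9 and 283.5 against 271 and 192.3. The small subunits did not follow: Rfc2 had 4589 and 4542 against 4814 and 3160, overlapping, and Rfc3, Rfc4 and Rfc5 overlapped at -0.12, -0.15 and 0.09. Pcna, the clamp itself, had 13840 and 15770 against 14660 and 11010, with the lowest value on wild type replicate 2 and overlapping groups (0.22, interval -0.29 to 0.73).

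Both genes that finish lagging strand fragments were higher on average. Fen1, the flap endonuclease, had 12520 and 19560 in necdin null and 11930 and 11250 in wild type cells (0.43, interval -0.13 to 1.00). As with Rpa1, replicate 2 carried most of the separation, and the other Fen1 probe set had a difference of 0.02. Lig1, the ligase that seals these fragments, had 4645 and 3927 against 3932 and 3421, with necdin null replicate 2 just under wild type replicate 1 (0.22, interval -0.22 to 0.65).

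In nucleotide synthesis, 3 of 4 genes were lower on average and the median was -0.12, or 0.079 without wild type replicate 1. Rrm1, the large subunit of ribonucleotide reductase, had 4761 and 3775 against 5878 and 4304. The groups overlapped, and within each the replicate 1 array was higher. Rrm2, its S phase subunit, had 4532 and 5427 against 5628 and 4629; the groups overlapped, the lowest value being on necdin null replicate 1 and the highest on wild type replicate 1. Tyms, which makes thymidylate, had 155.7 and 131.2 against 95.94 and 66.06, higher on both necdin null arrays (0.81, standard error 0.47, interval -0.25 to 1.88). This was the weakest signal among the members, and the other Tyms probe set above the filter went the other way (155.5 and 31.28 against 127.4 and 171.7). With necdin null replicate 2 left out, that other probe set was the brighter. The Tyms difference of 0.07 under that setting was taken from it. Tk1, the salvage kinase, overlapped at -0.20.

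For histone supply and S phase control, Chaf1b, a subunit of the histone chaperone CAF-1, had 2248 and 2091 against 2508 and 2069, and Slbp, which binds histone mRNA, had a difference of 0.00. Dtl, the adaptor that marks Cdt1 for destruction in S phase and after DNA damage, had 4406 and 5322 against 4778 and 4013, overlapping (0.15, interval -0.30 to 0.59). All 6 Dtl probe sets above the filter were higher on average, and for 2 of them the groups were apart: 409.2 and 527.1 against 323.3 and 359, and 309.4 and 454.9 against 142.6 and 247.9. Among the 35 members with over 1 probe set above the filter, the probe sets of 14 all pointed the same way (40%), against 2450 of 5786 genes (42.3%).

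**Figure D2:**
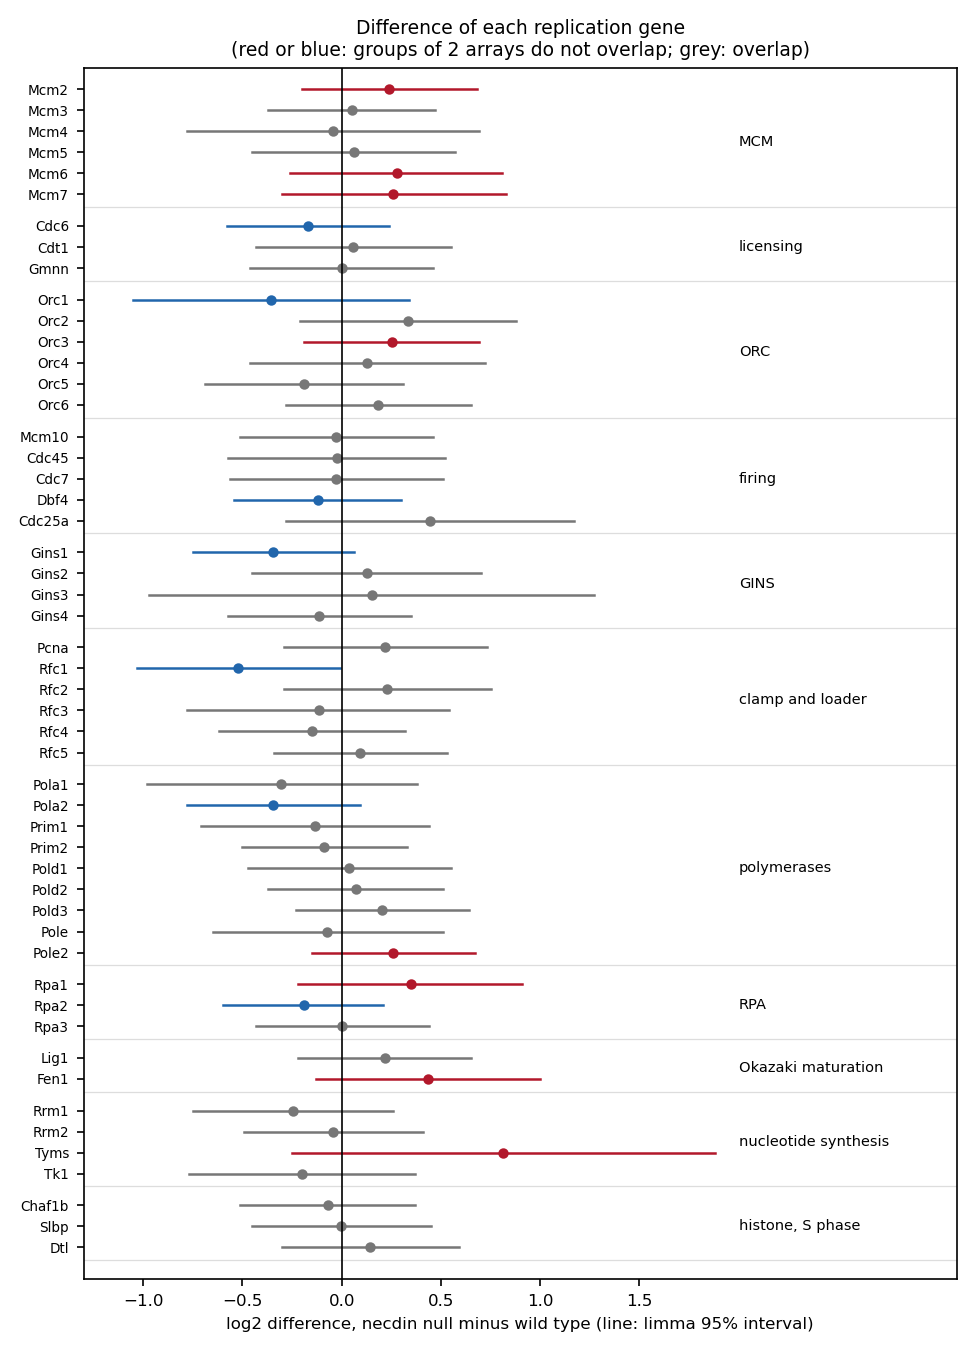
Log2 difference of each replication gene, necdin null minus wild type (points), with its 95% limma interval (lines), by role; red and blue mark genes whose 2 necdin null arrays lay both above or both below the 2 wild type arrays. Differences run from -0.52 (Rfc1) to 0.81 (Tyms), and as deposited the interval of Rfc1 alone leaves out 0.

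**Figure D3:**
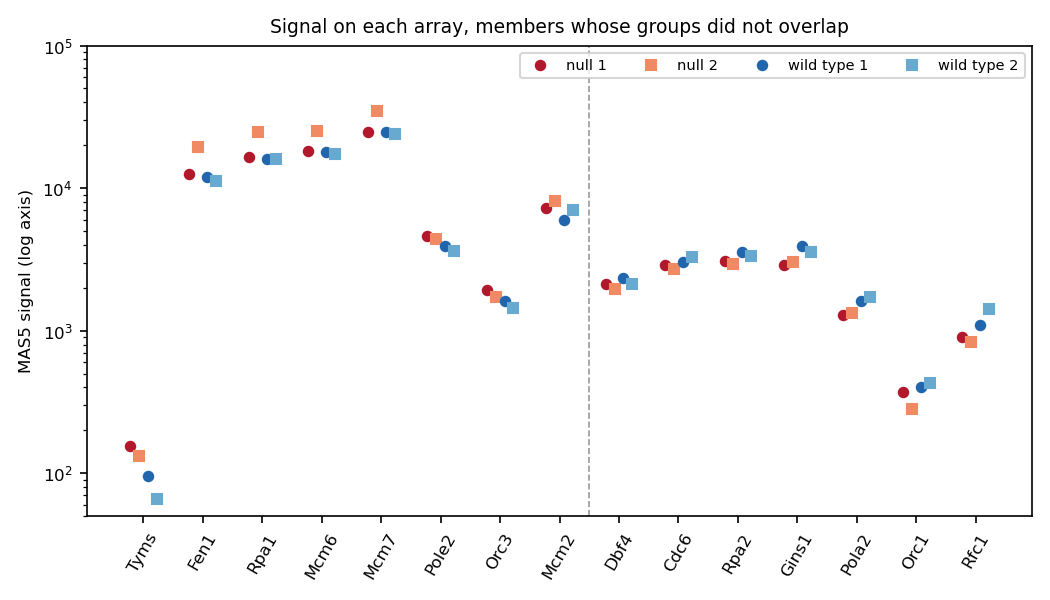
MAS5 signal on each array (log axis) for the 15 replication genes whose groups did not overlap, ordered by difference, with the 8 higher in necdin null to the left of the dashed line. For Fen1, Rpa1, Mcm6 and Mcm7 necdin null replicate 1 lies close to the wild type arrays and replicate 2 lies above all others.

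The members higher in necdin null with groups apart included several of the strongest signals. When the 17 brightest members (a split chosen after the values were seen) were set apart, 12 of them (70.6%) had their highest value on necdin null replicate 2, and so had 726 of the 1138 genes of at least that level (63.8%). Among the 34 other members 6 did (17.6%). The median deviation of the bright members from the 4-array mean was 0.18 on necdin null replicate 2 and between -0.12 and -0.09 on the other arrays; for the 1138 genes it was 0.16 and between -0.06 and -0.05. On that array the brightest 1% of probe sets held 37.4% of the total signal, against 28.9% to 30.6% on the others, and its Gapdh 3′ to 5′ signal ratio was 15.8, against 9.96 to 11.7; their part in these values was not tested. After quantile normalization, which gives all arrays the same distribution, Mcm6 had a difference of 0.10, Mcm7 0.06, Rpa1 0.17 and Fen1 0.28, and the MCM median was 0.03. Mcm7 then overlapped, while Mcm2, Mcm6, Rpa1 and Fen1 remained apart. Groups came apart for Mcm5 (-0.11) and Cdt1 (-0.09), lower in necdin null cells, and for Orc6 (0.23) and Lig1 (0.21), higher.

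**Figure D4:**
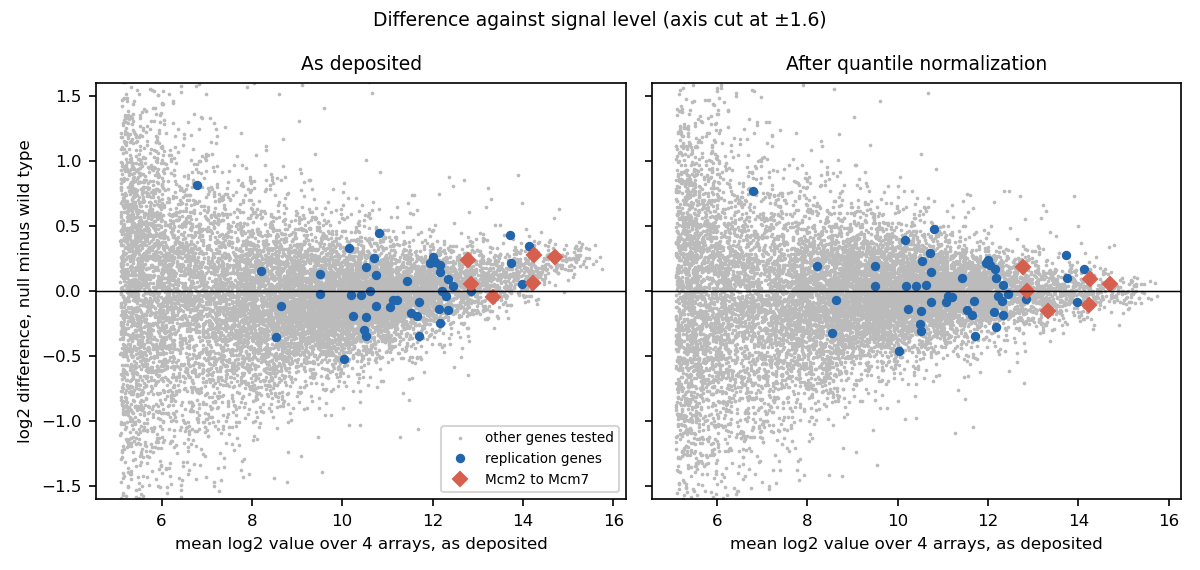
Log2 difference against mean log2 signal for all tested genes (grey), the replication genes (blue) and Mcm2 to Mcm7 (red diamonds), as deposited (left) and after quantile normalization (right); the vertical axis ends at ±1.6. As deposited, the bright genes lie above 0 as a whole, members included (medians of 0.11 over the 1138 bright genes and 0.06 over the 17 bright members); after normalization the medians are 0.00 and -0.03.

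A further list of 42 replication genes, covering checkpoint mediators, fork protection and G1/S regulators, gave a similar account. Of its 41 tested genes 0 passed over all genes, 15 were higher and 26 lower on average, with a median of -0.03, and groups were apart for 2 higher and 5 lower (12.8% and 17.7% of all genes). Ticrr, which is needed to load Cdc45, had 286 and 164.8 against 432.3 and 404.8 (-0.93, standard error 0.36). Cdk2, the S phase kinase, had 965.5 and 757.3 against 1393 and 1098 (-0.53, standard error 0.24). Atad5, which unloads PCNA, had 905.4 and 479.7 against 889.3 and 1138, overlapping, and Rnaseh2a had 1606 and 1261 against 2265 and 1571, overlapping. Among genes of G2/M and mitosis, 37 were tested, of which 0 passed over all genes; 13 had a higher mean and 24 a lower one, the median being -0.06. Groups were apart for 1 higher and 7 lower, where all genes gave 12.8% and 17.7%, the 7 being near that share. An unadjusted limma p under 0.05 was found for 0 that were higher (1.07% of all genes) and 3 that were lower (1.95%), Mki67 among them. The difference between the lists was not tested. Top2a, which untangles replicated DNA, had 6642 and 5549 against 6055 and 6027, and Mki67, a marker of cycling cells, had 1050 and 1493 against 2117 and 1846, lower on both necdin null arrays (-0.66, standard error 0.23; limma adjusted p = 1).

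**Figure D5:**
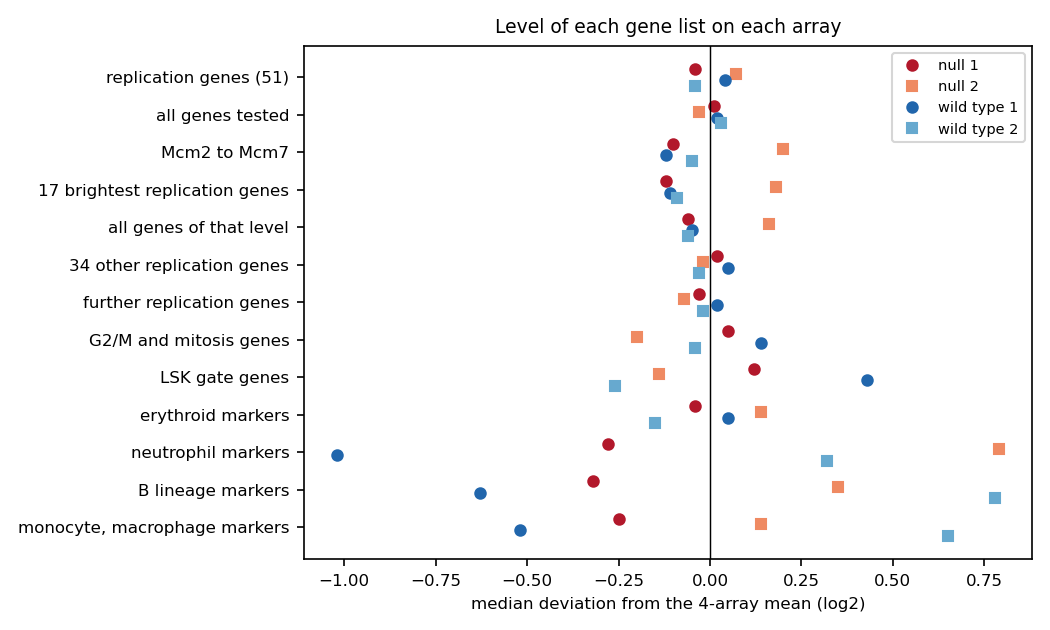
Median deviation from the 4-array mean (log2) of the replication genes, all tested genes, parts of the replication list, cell cycle genes and cell type markers, with 1 point per array (red shades: necdin null; blue shades: wild type; circles: replicate 1; squares: replicate 2). The replication genes stay between -0.04 and 0.07, while the neutrophil markers run from -1.02 to 0.79.

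The labels and the cell population were checked on the same arrays. Ndn, the gene of necdin, was low on both necdin null arrays: its probe set of highest mean log2 signal had 55.39 and 105 against 252.5 and 255.5, and the one with the largest difference had 1.743 and 4.859 against 504 and 328.7. Genes of the LSK population were detected on every array, among them Kit (c-Kit), with 6049 and 3744 against 6617 and 3976, and Cd34, with 13480 and 15250 against 14720 and 13410; Ly6a, which encodes Sca-1, was not analysed here. Marker lists of other cell types varied more between replicates than the replication genes did. Summed over 15 of 18 listed neutrophil markers the signal was 104000 and 213500 in necdin null and 80100 and 149500 in wild type cells, and over 11 of 13 B lineage markers it was 32030 and 62100 against 17950 and 54710. Over 11 of 15 erythroid markers it was 22520 and 26780 against 25790 and 20320, over 7 of 12 monocyte and macrophage markers 9468 and 16650 against 7872 and 14830, and over 4 of 12 T and NK markers 3731 and 4340 against 4002 and 3491. Groups overlapped for each of these sums. Most of the B lineage sum came from Ighm and Dntt, and most of the erythroid sum from Car2. Lyz2 gave most of the monocyte and macrophage sum, and Nkg7 most of the T and NK sum. Counted by gene, 13 neutrophil markers were higher on average in necdin null cells and 2 lower. The counts were 3 and 8 for B lineage markers and 2 and 5 for monocyte and macrophage markers. They were 7 and 4 for erythroid markers and 2 and 2 for T and NK markers. No named marker was at 0; the T cell genes Cd3d, Cd3e and Cd3g and the globin gene Hba-a1 were among the markers under the filter. The part of these cells in the values of the replication genes was not tested.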

How the data were processed

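The members and gene lists were chosen with earlier results of these data known. The deposited table holds intensity values on a linear scale, made with MAS5 per the submitters' processing notes (version not given in the sources used here). After trimming 2% of probe sets from either tail, every one of the 4 arrays had a mean of 500. Of 45101 probe sets, 34958 had 1 symbol in the platform annotation, 932 several and 9211 none; only the first were named, and 34754 of them were found in RefSeq (GRCm38.p6), whose promoter windows give the sequences.

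Values were taken as log2(signal + 3.80), the pseudocount being the 10th percentile of all values, which understates changes of low genes. A filter at the 40th percentile (5.09 on that scale) was set on each gene's brightest probe set, and the genes above it were fitted with limma 3.58.1 in R 4.3.3. The two-sided moderated test used lmFit and eBayes with a trend, a Benjamini-Hochberg adjustment over 12680 genes and a threshold of 0.05. The code was tested on simulated data. With 2 arrays a group, the smallest two-sided p of an exact permutation test is 0.333. Precision is limited by the number of arrays. Values on every array are given for up to 14 members with groups apart, the 2 of smallest p per role, the 3 of largest replicate range, and Mcm3, Mcm5, Pcna and Rrm2, added after their values were seen. The 6 promoters with a word were also chosen after the matches were seen. Alternatives changed the pseudocount, filter, normalization, variance trend and probe sets, included a replicate block, or omitted 1 array at a time.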

Additional observations from a re-analysis of the deposited data

How the results depend on the processing

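No member was called under any of the 14 alternatives, and the count of called members stayed 0; at an unadjusted limma p under 0.05 there were 0 to 5 members. The count of called genes was 0 except for 3 with the replicate block and 0 to 4 when leaving out 1 array; none was a member. Replicate numbers were not taken as pairs: same-numbered arrays' deviations had a correlation of 0.11 over genes, from 2 pairs only. Some lists still shifted the same way from replicate 1 to replicate 2 in both genotypes. Median deviations of neutrophil markers were -0.28 and 0.79 in necdin null and -1.02 and 0.32 in wild type cells. Those of LSK gate genes fell (0.12 to -0.14, and 0.43 to -0.26). Erythroid markers and the members shifted in opposite directions in the 2 genotypes. The block changed no call among the members. The median difference of the members was -0.079 with median centring and -0.019 to 0.111 when leaving out 1 array, highest without necdin null replicate 1. With median centring, groups were apart for 2 members higher and 11 lower, where all genes gave 7.42% and 23.2%. When 1 array was left out, the lone array made separation easier: 11 to 21 members were higher and 13 to 18 lower, and without necdin null replicate 2 these were 11 and 17, where all genes gave 27.7% and 32.1%.

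Of 417 alternative values of 30 named members, 387 kept their direction and 30 turned. The 17 members that never turned included Rfc1, Gins1, Pola2, Pole2 and Fen1. Fen1, Mcm7 and Cdc6 had no value without _s_at, _x_at and _a_at probe sets, as all of their probe sets are of these kinds. With median centring Mcm3 (-0.03), Mcm5 (-0.019) and Cdt1 (-0.024) turned, and with quantile normalization Mcm3 (-0.003), Mcm5 (-0.106) and Cdt1 (-0.086). Averaging all probe sets turned Mcm4 (0.039), Mcm5 (-0.16), Cdt1 (-0.10), Orc1 (1.15), Dbf4 (0.61), Cdc25a (-1.01) and Tyms (-0.001). This average also takes in probe sets under the filter. Among them were 1 of Dbf4 (41.01 and 22.6 against 4.29 and 19.3) and 1 of Cdc25a (5.068 and 2.575 against 28.15 and 111.3). The weaker Orc1 probe set was above the filter but had 8.465 on wild type replicate 2. Without _s_at, _x_at and _a_at probe sets Mcm3 (-0.021), Mcm4 (0.124), Mcm5 (-0.192) and Cdt1 (-0.069) turned. When 1 array was left out, ranges crossed 0 for Mcm3 (-0.016 to 0.117), Mcm4 (-0.57 to 0.48), Mcm5 (-0.10 to 0.22), Cdt1 (-0.10 to 0.21), Cdc25a (-0.088 to 0.978), Gins3 (-0.63 to 0.94), Gins4 (-0.279 to 0.055), Rfc2 (-0.076 to 0.53), Rrm2 (-0.18 to 0.10) and Chaf1b (-0.21 to 0.067). The causes were not tested. Subgroup medians moved by less than the spread between replicates in 136 of 154 cases, and their sign turned in 28. With 2 arrays a group, differences under 1.42-fold lie within the median 95% interval.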
